A study of Mus musculus with 48 samples.

Results

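Transcripts of 8 cholesterol synthesis genes, Hmgcs1, Idi1, Fdps, Sqle, Lss, Cyp51, Sc4mol and Sc5d, were followed through the preoptic area of female mice that had or had not been exposed to an androgen before birth. The genes were taken by name from the count table of 23284 genes, all 8 were found, and all 8 passed the filter on low counts in every comparison. Each library came from GnRH neurons, whose hormone controls the pituitary and through it the ovary, or from the tissue around them. In mice of the genotype GnRH CRE x Floxed L10a-GFP, Cre expressed in GnRH neurons switches on a GFP-tagged ribosomal protein, so that an immunoprecipitate (IP) is enriched for GnRH neuron RNA and the supernatant is the preoptic tissue left after it. Adult mice, collected in diestrus, and young mice, which the study calls prepubertal, had been exposed before birth to DHT (dihydrotestosterone, an androgen that is not converted to estrogen) or to vehicle. This gave 8 groups, namely adult DHT, adult vehicle, young DHT and young vehicle in the IP and the same 4 conditions in the supernatant, with 6 libraries a group and 5 in both adult vehicle groups. A further IP and supernatant, 1 library each, came from young control mice of the genotype Floxed L10a-GFP, which carried the tag without Cre and are labelled NoGFP in place of a prenatal treatment. The labels call the libraries of a group biological replicates but do not give the number of animals in each, and each p-value is a statement about the spread of these libraries. The protocol text also mentions tissue of both sexes, and no label gives the sex of a library.

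Cholesterol is built from acetyl groups through the mevalonate pathway. Hmgcs1 makes hydroxymethylglutaryl-CoA at its start, Idi1 isomerises isopentenyl diphosphate and Fdps joins such units into farnesyl diphosphate, which also feeds other lipids and the prenylation of proteins. Sqle epoxidises squalene, Lss closes the ring to lanosterol, and Cyp51, Sc4mol (now named Msmo1) and Sc5d then demethylate and desaturate the sterol. The genes are known targets of SREBP transcription factors, which are released when membranes run low in sterol. The brain makes its own cholesterol, with high rates while myelin is laid down.

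Library totals were 28672556 to 47054029 counts in the 23 IP libraries of Cre mice and 28136000 to 55479451 in the 23 supernatant libraries. Counts are given as CPM, scaled by the total of each library. Summed over 7 GnRH neuron genes, IP libraries held 829.8 to 16823 CPM and supernatants 152 to 247 CPM, against 219.6 CPM in the IP of control mice lacking Cre. The 10 libraries with the last sample numbers in the labels were all young, 3 DHT and 2 vehicle in each fraction, and results that rest on them are given with and without them.

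The promoters of 4 of the genes are shown because Cyp51, Sc4mol and Sc5d varied together between supernatant libraries, as described further on, while Hmgcs1 varied with other genes. The windows run from 250 bases before to 50 after the gene's start, 5′ to 3′ on the gene's strand, from RefSeq on GRCm38.p6. The RefSeq start can differ from that of the GENCODE M21 annotation. For Sc4mol the GENCODE gene begins farther upstream, at chr8:64733792, so most of its window, with its CCAAT boxes, lies inside that gene. Capitals mark the sterol response element core TCACNCCAC, the CCAAT box and the E-box CACGTG, each searched on both strands, with a CCAAT box on the other strand reading ATTGG. The Hmgcs1 window lies at chr13:119690101-119690400 (plus strand), the Cyp51 window at chr5:4104648-4104947 (minus strand), the Sc4mol window at chr8:64733529-64733828 (minus strand) and the Sc5d window at chr9:42264251-42264550 (minus strand).
Hmgcs1: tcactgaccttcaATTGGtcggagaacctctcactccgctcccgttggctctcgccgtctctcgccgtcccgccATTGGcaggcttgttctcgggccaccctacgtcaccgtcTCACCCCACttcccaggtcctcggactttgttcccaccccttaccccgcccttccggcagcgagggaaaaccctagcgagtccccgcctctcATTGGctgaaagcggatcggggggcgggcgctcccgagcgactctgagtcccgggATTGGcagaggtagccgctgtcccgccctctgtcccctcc
Cyp51: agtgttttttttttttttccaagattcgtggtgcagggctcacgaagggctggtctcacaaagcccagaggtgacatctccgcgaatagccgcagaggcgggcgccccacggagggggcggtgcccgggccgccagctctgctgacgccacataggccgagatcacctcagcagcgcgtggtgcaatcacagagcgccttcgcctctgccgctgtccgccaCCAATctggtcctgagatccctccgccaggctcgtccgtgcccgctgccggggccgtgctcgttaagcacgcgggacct
Sc4mol: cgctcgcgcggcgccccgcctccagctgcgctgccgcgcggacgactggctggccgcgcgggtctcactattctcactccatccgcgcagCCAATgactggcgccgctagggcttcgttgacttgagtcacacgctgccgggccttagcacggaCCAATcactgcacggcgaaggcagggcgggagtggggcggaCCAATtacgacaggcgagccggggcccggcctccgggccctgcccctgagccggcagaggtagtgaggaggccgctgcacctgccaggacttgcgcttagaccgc
Sc5d: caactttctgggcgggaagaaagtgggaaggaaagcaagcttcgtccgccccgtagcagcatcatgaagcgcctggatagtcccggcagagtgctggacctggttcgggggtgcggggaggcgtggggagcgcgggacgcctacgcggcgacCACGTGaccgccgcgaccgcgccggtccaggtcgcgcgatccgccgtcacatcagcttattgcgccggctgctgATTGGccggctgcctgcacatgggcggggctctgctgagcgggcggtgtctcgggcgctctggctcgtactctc
A promoter was found for 6 of the 8 genes, all but Fdps and Sqle. All 6 windows held a CCAAT box, which 37.4% of the 32851 promoters of the table hold, and all 6 held the GC box GGGCGG (not in capitals), which 35.7% hold. The sterol response element core was in the Hmgcs1 window, starting 137 bases before the start, and in 1.24% of all promoters. The E-box was in the Sc5d window, starting 98 bases before the start, and in 7.15% of all promoters. A match describes letters and not a bound site, and the 3 motifs in capitals did not overlap one another in these windows.

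Per kilobase of exon, Fdps was the most abundant of the 8 transcripts in each of the 8 groups and Lss or Sc5d the least. In adult vehicle supernatants Fdps stood at 119 CPM per kilobase, followed by Hmgcs1 at 66.6, Sc4mol at 36.2, Sqle at 26.1, Idi1 at 24.4, Cyp51 at 11.0, Sc5d at 4.51 and Lss at 4.37. These are group means, and the neighbours Sqle and Idi1, and Sc5d and Lss, lay within the spread of their libraries. In GENCODE M21 on GRCm38, Fdps (chr3:89093588-89101959, minus strand) shares 77.36% of its exon bases with Gm43738 on the same strand, and 5 processed pseudogenes hold near-identical stretches of 123 to 1066 bases, so its reads may have been divided by the counting. For Idi1, 2 processed pseudogenes hold stretches of 681 and 684 bases. Hmgcs1 (chr13:119690379-119708260, plus strand) shares 16% of its exon bases with the antisense gene Gm48342, Idi1 (chr13:8885501-8892451) 10.67% with Gm48574, Lss (chr10:76531588-76557138) 8.164% with the antisense gene 4930483K19Rik and Cyp51 (chr5:4081145-4104746) 4.223% with Akap9. The library kit does not mark strand, so reads in these stretches cannot be assigned to a strand. Sqle (chr15:59315077-59331192), Sc4mol (chr8:64718139-64733792) and Sc5d (chr9:42251595-42264256) share none.

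**Figure D1:**
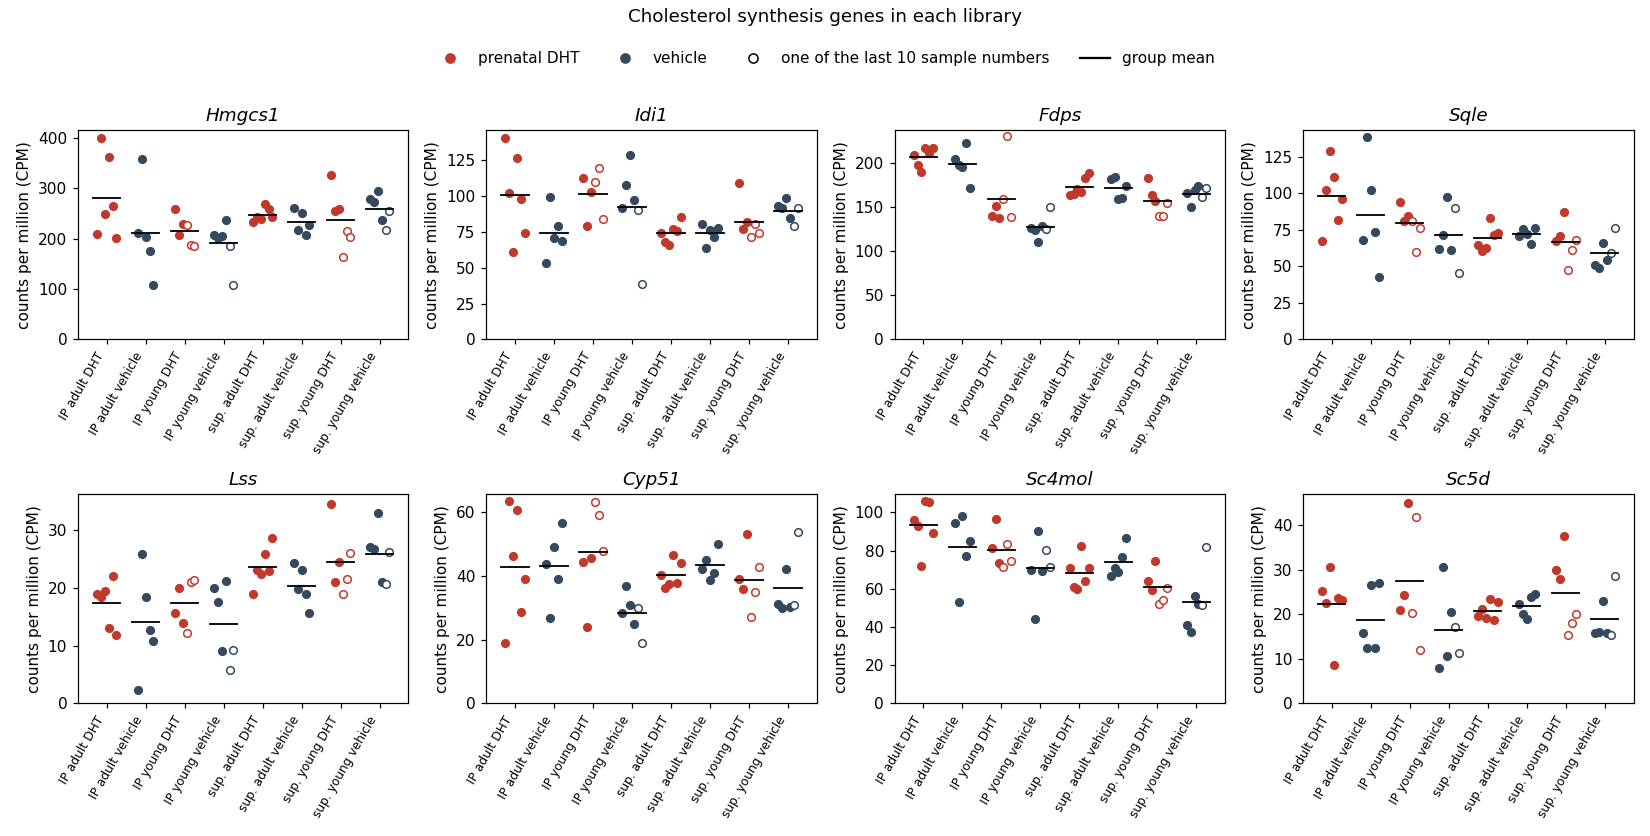
CPM of the 8 genes in each library (points) with the group mean (line), for IP and supernatant (sup.) groups, with open points for the last 10 sample numbers. Fdps in the IP lies at 172 to 223 CPM in adult vehicle mice, above every young vehicle library (110.4 to 150.1 CPM).

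Replicates spread more in the IP than in the supernatant. The coefficient of variation, the SD as a percent of the mean, was larger in the IP in 24 of the 32 pairs of gene and condition, and it ran from 5.26% to 62.5% in IP groups and from 5.16% to 33.9% in supernatant groups. The highest value was that of Lss in adult vehicle IP, with 2.40, 10.9, 12.7, 18.5 and 26.0 CPM in the 5 adult vehicle IP libraries against 15.7, 18.9, 19.8, 23.2 and 24.3 CPM in their supernatants. Fdps ran from 5.26% in adult DHT IP to 22.6% in young DHT IP, and from 5.16% to 10.3% in supernatants.

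GnRH neuron RNA was compared with the tissue left after it by setting IP against supernatant. Averaged across the 4 conditions, 3 of the 8 genes were higher in the IP, the late-pathway enzymes Sqle and Sc4mol and the isomerase Idi1, and Lss was lower. None of the differences reached 2-fold. Sc4mol was 1.33-fold higher (log2 fold change 0.41 ± 0.08, SE; edgeR adjusted p = 2.86e-05), Sqle 1.29-fold higher (0.36 ± 0.09, edgeR adjusted p = 0.000908) and Idi1 1.19-fold higher (0.25 ± 0.09, edgeR adjusted p = 0.0193). Lss stood at 0.688 of its supernatant level (-0.54 ± 0.15, edgeR adjusted p = 0.00298). The 4 calls of 8 stand beside 46.1% of the 16660 genes tested, so the share of these genes that differed between the fractions was close to that of all genes. The median log2 fold change was 0.07 over the 8 genes and -0.00 over all genes. Hmgcs1, Fdps, Cyp51 and Sc5d did not pass, with 95% intervals of their log2 fold changes of -0.26 to 0.09, -0.02 to 0.20, -0.16 to 0.27 and -0.26 to 0.26. The Idi1 call was lost without IP adult DHT replicate 1, IP adult vehicle replicate 2 or supernatant adult vehicle replicate 3, 4 or 5 (edgeR adjusted p = 0.061 to 0.11) and without the last 10 sample numbers (log2 fold change 0.19, edgeR adjusted p = 0.108). Without IP adult vehicle replicate 2, Hmgcs1 passed as lower (-0.20, edgeR adjusted p = 0.0433). In bulk RNA, a level can differ through the number of cells of a type or the RNA per cell. In an IP it can also differ through untagged RNA carried along, and these cannot be told apart.

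In adult DHT mice 4 genes were higher in the IP, beside 21.5% of all genes called. Sqle measured 67.2 to 129 CPM (median 99.3) in the IP and 60.4 to 83.1 CPM (median 68.2) in the supernatant. Sc4mol measured 71.9 to 106 CPM (median 94.5) in the IP and 60.2 to 82.5 CPM (median 67.4) in the supernatant. For Sqle 4 and for Sc4mol 5 of the 6 IP libraries lay above the highest supernatant. Idi1 measured 60.9 to 140.5 CPM (median 99.9) in the IP and 65.4 to 84.9 CPM (median 75.1) in the supernatant, with 2 of its IP libraries below the supernatant median. Fdps measured 191 to 218 CPM (median 210.3) in the IP and 164 to 189 CPM (median 169.5) in the supernatant, and it was the 1 gene of the 8 whose groups did not overlap, where 3% of all genes lay wholly above. The log2 fold changes were 0.56 ± 0.18 for Sqle (edgeR adjusted p = 0.0185), 0.52 ± 0.15 for Sc4mol (edgeR adjusted p = 0.0114), 0.50 ± 0.17 for Idi1 (edgeR adjusted p = 0.0309) and 0.32 ± 0.11 for Fdps (edgeR adjusted p = 0.0289). Leaving out 1 library ended the Idi1 call in 5 cases (IP replicate 1 or 4, supernatant replicate 2, 3 or 4; adjusted p = 0.0502 to 0.161 in edgeR), the Fdps call in 5 (IP replicate 1 or 5, supernatant replicate 1, 2 or 4; 0.0522 to 0.0646) and the Sqle call in 1 (IP replicate 3; 0.0629). The Sc4mol call was not lost in any of the 12 cases. The Idi1 call was also lost when IP and supernatant libraries of equal replicate number were treated as pairs (0.45, edgeR adjusted p = 0.0575), which the labels do not state.

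Adult vehicle mice gave no call among the 8 genes, beside 24% of all genes, and 5690 of the 16660 genes had an unadjusted p below 0.05. Fdps was nearest, with 172, 196, 198, 205 and 223 CPM in the IP and 159.7, 161, 175, 182 and 184 CPM in the supernatant (log2 fold change 0.31 ± 0.12, edgeR adjusted p = 0.052). This value passed with no filter on low counts (edgeR adjusted p = 0.0395) and without the last 10 sample numbers (log2 fold change 0.25, edgeR adjusted p = 0.0209). Sqle and Sc4mol had log2 fold changes of 0.35 ± 0.20 and 0.25 ± 0.17 there and did not pass.

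Young vehicle mice had 1 gene called higher, Sc4mol, and 2 called lower, Fdps and Lss, beside 21.9% of all genes. Fdps measured 110.4 to 150.1 CPM (median 126) in the IP and 151 to 174 CPM (median 168) in the supernatant, so every IP library lay below every supernatant library, as was so for 8.24% of all genes (log2 fold change -0.37 ± 0.11, edgeR adjusted p = 0.0119). Lss measured 5.72 to 21.2 CPM (median 13.5) in the IP and 20.7 to 33.0 CPM (median 26.6) in the supernatant (-0.92 ± 0.30, edgeR adjusted p = 0.0206). Sc4mol measured 44.0 to 90.3 CPM (median 70.7) in the IP and 37.6 to 81.8 CPM (median 51.8) in the supernatant (0.42 ± 0.15, edgeR adjusted p = 0.0428). The groups overlapped for Lss and Sc4mol. Young DHT mice had 1 call, Sc4mol, beside 20% of all genes. It measured 71.4 to 96.5 CPM (median 78.0) in the IP and 51.9 to 74.7 CPM (median 60.1) in the supernatant (0.44 ± 0.15, edgeR adjusted p = 0.0353). The Fdps call held without any 1 library. The Sc4mol call was lost in 8 of 12 such fits in young vehicle mice (without IP replicate 3, 5 or 6 or supernatant replicate 1, 2, 3, 4 or 5; edgeR adjusted p = 0.0544 to 0.124) and in 6 of 12 in young DHT mice (without IP replicate 2, 5 or 6 or supernatant replicate 2, 4 or 5; 0.0559 to 0.0914), and the Lss call in 3 (without IP replicate 3 or 5 or supernatant replicate 3; 0.0522 to 0.0725). Hmgcs1 in young vehicle mice had -0.45 ± 0.17 (edgeR adjusted p = 0.0559) and passed with a term for the last 10 sample numbers (-0.46, edgeR adjusted p = 0.0327). In young DHT mice Fdps had 0.08 ± 0.11 (edgeR adjusted p = 0.719). Without the last 10 sample numbers, Fdps stood at -0.49 (edgeR adjusted p = 0.000212), Lss at -0.73 (0.202) and Sc4mol at 0.50 in young vehicle (0.0461) and 0.30 in young DHT mice (0.45).

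**Figure D2:**
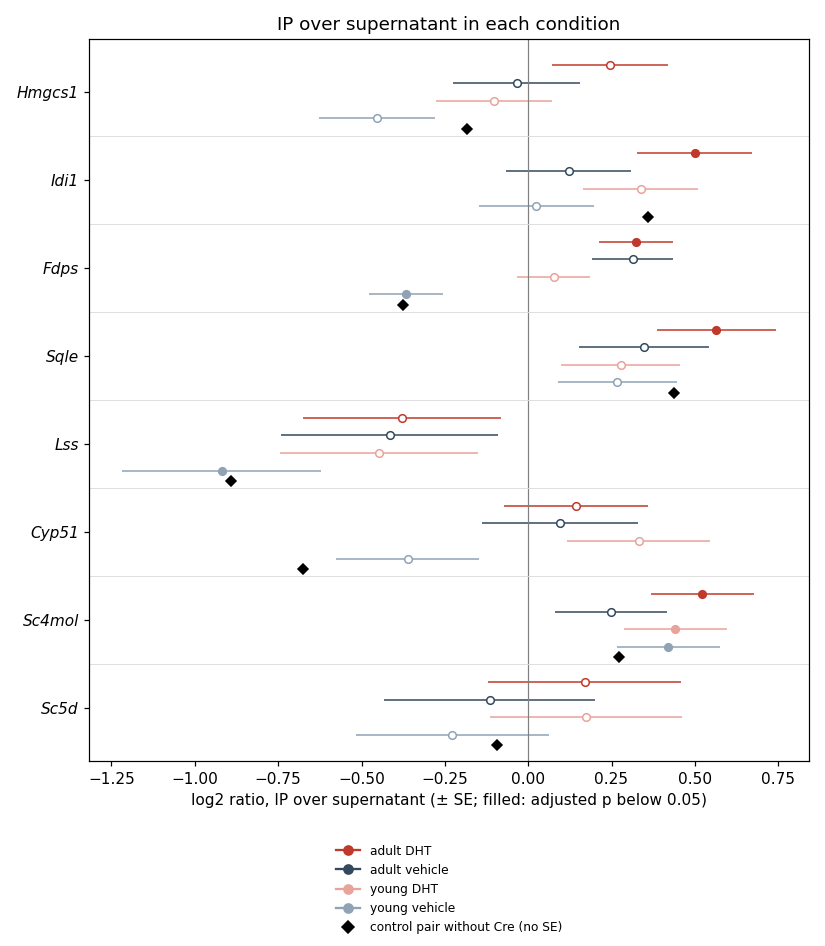
Log2 ratio of IP over supernatant for each gene in the 4 conditions (edgeR, bars ± SE, filled where the adjusted p was below 0.05) and in the control pair without Cre (diamonds, 1 library each). Fdps lies at 0.32 and 0.31 in adult DHT and adult vehicle mice and at -0.37 in young vehicle mice, and Lss lies below 0 throughout.

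The control pair without Cre, which has no GnRH neuron tag, gave ratios in the same direction for the 4 genes called. Sqle measured 79.0 CPM (95% exact Poisson interval 76.0 to 82.1) in the IP and 58.4 CPM (56.0 to 60.9) in the supernatant, a ratio of 1.35. Lss measured 16.7 CPM (95% exact Poisson interval 15.3 to 18.2) in the IP and 31.0 CPM (29.2 to 32.8) in the supernatant, a ratio of 0.539. The IP over supernatant ratio was 1.28 for Idi1 and 1.21 for Sc4mol, and it was 0.771 for Fdps, 0.626 for Cyp51, 0.881 for Hmgcs1 and 0.937 for Sc5d. The control was young and is 1 library a fraction, the intervals cover counting error only, and the part of untagged RNA in the results of the Cre mice was not tested. Over 15615 genes with counts in both control libraries the median log2 ratio was 0.06, and 13.4% were at least 2-fold higher and 12.4% at least 2-fold lower in the IP.

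Other genes of sterol metabolism were split between the fractions. Of 14 tested enzymes of the same pathway, 2 were higher in the IP and 3 were lower when the 4 conditions were averaged, beside the same 46.1% of all genes. Pmvk, a mevalonate pathway kinase, was higher (0.31 on the log2 scale, edgeR adjusted p = 0.00237). Acat2, which starts the pathway, and Dhcr7, which acts near its end, were lower (-0.28 and -0.45; edgeR adjusted p = 3.59e-05 and 0.0012). Of 17 tested genes of sterol sensing and uptake, 4 were higher and 6 lower. Srebf2, the SREBP that acts chiefly on cholesterol genes, and its escort Scap were lower (-0.52 and -0.55; edgeR adjusted p = 1.34e-07 and 3.97e-06). Lrp8, a receptor for apolipoprotein E, and Npc2, which moves cholesterol out of lysosomes, were higher (0.89 and 0.45; edgeR adjusted p = 2.93e-07 and 3.58e-06). In the control without Cre the log2 ratio of Srebf2 was -0.70, that of Scap -0.41, that of Lrp8 1.81 and that of Npc2 0.61, the same directions as in the Cre mice. Of the marker lists, 7 of 7 GnRH neuron genes were higher in the IP. Lower were 6 of 14 genes of myelinating oligodendrocytes, 7 of 12 of astrocytes and 3 of 9 of microglia. Also higher were 1 myelin and 1 astrocyte gene. A list of premyelinating oligodendrocytes and precursors had 5 of 11 lower, namely Tcf7l2, Olig1, Olig2, Sox10 and Nkx2-2. Its other genes, among them Pdgfra, Cspg4, Bmp4 and Gpr17, did not pass. Of 13 neuron genes 4 were higher and 4 lower, and of 8 endothelial genes none passed. How far these cells contribute to the differences was not tested.

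In the IP, Fdps was the 1 gene of the 8 called between adult and young vehicle mice. It measured 172, 196, 198, 205 and 223 CPM in the 5 adult IP libraries and 110.4 to 150.1 CPM (median 126) in the 6 young ones. Every adult library lay above every young one, which was so for 1.62% of the 15890 genes tested. The adult mean was 199 ± 18.4 CPM (SD, n = 5) and the young mean 127 ± 12.8 CPM (n = 6). The edgeR fit, which adds TMM factors, put adults 1.60-fold higher (log2 fold change 0.68 ± 0.14, edgeR adjusted p = 0.0057), where 3.83% of all genes were called. The call held without any 1 library, with edgeR adjusted p = 0.00394 to 0.0311. Of the 8 genes 7 had a positive log2 fold change, with a median of 0.24 over the 8 and 0.01 over all genes. Cyp51 had the next largest value, with 26.7, 39.1, 43.6, 49.2 and 56.7 CPM in adult and 19.0 to 37.0 CPM (median 29.3) in young IP (0.64 ± 0.28, edgeR adjusted p = 0.215). The other 6 genes ranged from -0.25 for Idi1 to 0.31 for Sqle and overlapped between the ages.

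In DHT mice Fdps measured 191 to 218 CPM (median 210.3) in adult IP and 138 to 231 CPM (median 146) in young IP. A single young library, replicate 5, stood above every adult one, and the other 5 lay at 138 to 159 CPM. The log2 fold change was 0.40 ± 0.13 (edgeR adjusted p = 0.0643), and no gene of the 8 passed, beside 7.12% of all genes and with 3248 of 15890 genes at an unadjusted p below 0.05. Without young DHT replicate 5 it was 0.54 (edgeR adjusted p = 0.00478), and without the last 10 sample numbers, to which that library belongs, 0.60 (edgeR adjusted p = 0.0126). The other 7 genes ranged from -0.27 for Sc5d to 0.42 for Hmgcs1.

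The age difference of Fdps in vehicle mice differed between the fractions. In vehicle supernatants it measured 159.7, 161, 175, 182 and 184 CPM in adults and 151 to 174 CPM (median 168) in young mice, so the ages overlapped (0.03 ± 0.08, edgeR adjusted p = 0.811). The age effect in the IP exceeded that in the supernatant by 0.68 ± 0.16 on the log2 scale (edgeR adjusted p = 0.0275), where 1.04% of all genes were called and no other of the 8 genes. The call was lost without supernatant adult vehicle replicate 3 (0.62, edgeR adjusted p = 0.0565) or replicate 4 (0.61, edgeR adjusted p = 0.0575). It was also lost when IP and supernatant libraries of equal replicate number were treated as pairs (0.69, edgeR adjusted p = 0.0622), which the labels do not state. In DHT mice the same difference was 0.25 ± 0.16 (edgeR adjusted p = 0.619) and no gene of the 8 was called, beside 0.882% of all genes and with 1899 of 16660 at an unadjusted p below 0.05. It stood at 0.58 (edgeR adjusted p = 0.0273) without the last 10 sample numbers. Summed over 14 genes of myelinating oligodendrocytes, the IP held 1412 to 4654 CPM in adult DHT, 1815 to 2733 CPM in adult vehicle, 3825 to 6012 CPM in young DHT and 3986 to 5206 CPM in young vehicle mice, none of the 14 at 0 in a whole group. Vehicle IP had 1 of these genes higher and 4 lower in adults, where 2.04% of all genes were higher and 1.79% lower. In the IP, Fdps was higher in the groups where these transcripts were lower, though their ranges in adult and young DHT mice overlapped. In vehicle supernatants these transcripts were also lower in adults, as given further on, while Fdps overlapped between the ages. Their part in the result was not tested.

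**Figure D3:**
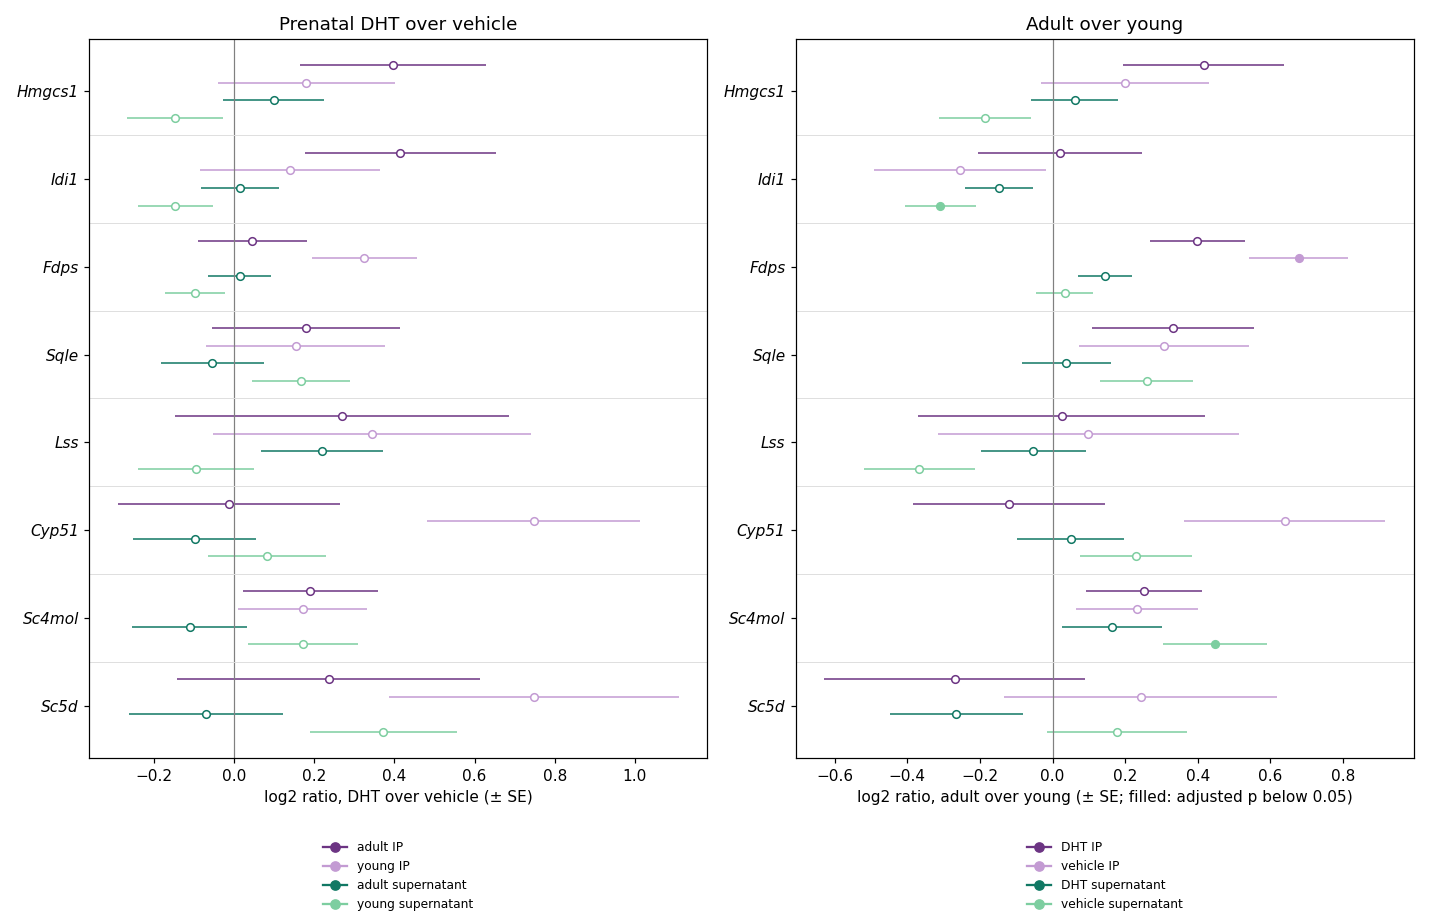
Log2 ratios of DHT over vehicle (left) and adult over young (right) for each gene in each fraction (edgeR, bars ± SE, filled where the adjusted p was below 0.05). No gene is filled on the left, and on the right Fdps is filled in vehicle IP (0.68) and Idi1 and Sc4mol in vehicle supernatants (-0.31 and 0.45).

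In the surrounding tissue the genes moved in both directions with age. In vehicle supernatants Sc4mol was higher and Idi1 lower in adults, beside 20.3% of all genes, and the median log2 fold change was 0.11 over the 8 genes and 0.01 over all genes. Sc4mol measured 67.0, 68.8, 70.8, 76.6 and 86.8 CPM in adults and 37.6 to 81.8 CPM (median 51.8) in young mice. A single young library, replicate 6, lay at 81.8 CPM and the other 5 lay below every adult (0.45 ± 0.14, edgeR adjusted p = 0.0283). Idi1 measured 63.7, 71.2, 76.4, 77.3 and 80.2 CPM in adults and 79.3 to 98.6 CPM (median 91.3) in young mice, with the lowest young library just below the highest adult (-0.31 ± 0.10, edgeR adjusted p = 0.0272). The Sc4mol call was lost without adult replicate 2 or 5 or young replicate 1, 2, 4 or 5 (edgeR adjusted p = 0.0504 to 0.0746) and the Idi1 call without adult replicate 2 or 4 or young replicate 3 (0.0606 to 0.0802). Without the last 10 sample numbers, which include young replicate 6, Sc4mol stood at 0.64 (edgeR adjusted p = 0.000312) and Idi1 at -0.34 (0.0142), and Sqle at 0.37 (0.00915) and Cyp51 at 0.36 (0.0316) passed too. With a term for these libraries, Hmgcs1 at -0.32 (edgeR adjusted p = 0.0195) and Lss at -0.46 (0.0312) passed. Lss had -0.37 ± 0.15 (edgeR adjusted p = 0.0921) with all libraries and the other 5 genes ranged from -0.19 for Hmgcs1 to 0.26 for Sqle. Hmgcs1, Idi1 and Lss thus had negative values and Sqle, Cyp51, Sc4mol and Sc5d positive ones.

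DHT supernatants gave no call among the 8 genes for age, beside 19.9% of all genes, and 5515 of 16286 genes had an unadjusted p below 0.05. Fdps came nearest, with 164 to 189 CPM (median 169.5) in adults and 140.2 to 183 CPM (median 156) in young mice (0.14 ± 0.07, edgeR adjusted p = 0.175). It passed without young replicate 1 (0.20, edgeR adjusted p = 0.0469). Sc5d measured 18.7 to 23.4 CPM (median 20.5) in adults and 15.4 to 37.5 CPM (median 24.1) in young mice (-0.26 ± 0.18, edgeR adjusted p = 0.323), and stood at -0.62 (edgeR adjusted p = 0.00337) without the last 10 sample numbers.

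Other genes of the pathway also moved in both directions with age in vehicle supernatants. Of 14 tested enzymes, 2 were higher and 3 lower in adults, 5 of 14 beside 20.3% of all genes called. Fdft1, which makes squalene, and Nsdhl, a sterol dehydrogenase, were higher (0.33 and 0.33 on the log2 scale, edgeR adjusted p = 0.0112 and 0.0172), and Mvd and Mvk, of the mevalonate steps, were lower (-0.48 and -0.34; edgeR adjusted p = 0.000301 and 0.00286). In DHT supernatants Fdft1 was higher (0.47, edgeR adjusted p = 0.000498) and Pmvk lower (-0.29, 0.0111), the 2 calls of 14, beside 19.9% of all genes. In the IP Fdft1 was the 1 enzyme called in vehicle mice (0.88, edgeR adjusted p = 0.00519) and in DHT mice (0.65, 0.0163), higher in adults in both, beside 3.83% and 7.12% of all genes called. The age comparisons within a treatment use separate animals for vehicle and DHT.

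Genes of sterol sensing and uptake were mostly higher where they were called in adult supernatants. In vehicle mice 7 of 17 were higher and 1 was lower, and in DHT mice 4 were higher and 1 lower, where 10.1% and 9.47% of all genes were higher. Srebf1 and Srebf2, which encode the SREBPs, were higher in vehicle (0.61 and 0.43; edgeR adjusted p = 0.00162 and 0.00195) and in DHT mice (0.61 and 0.40; edgeR adjusted p = 0.0011 and 0.00224). Mbtps1, a protease that releases SREBPs, was higher in vehicle mice (0.39, edgeR adjusted p = 0.00516). Adult vehicle supernatants held 2498 to 3961 CPM of the 14 myelin genes and young ones 5224 to 7032 CPM, and the DHT supernatants held 2426 to 5304 CPM in adults and 4856 to 7393 CPM in young mice. In vehicle mice 10 of 14 myelin genes and 9 of 11 genes of the premyelinating and precursor list were lower in adults. There 1 myelin gene was higher, and 10.2% of all genes were lower. The counts of higher and lower genes were 1 and 0 of 12 for astrocytes, 3 and 2 of 13 for neurons, 1 and 0 of 9 for microglia, 0 and 2 of 8 for endothelium and 1 and 2 of 7 for the GnRH neuron list. The part of these shifts in the results for the sterol genes was not tested.

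Prenatal DHT was set against vehicle in each fraction and age, and none of the 8 genes was called in any of the 4 comparisons. All genes together gave 0% called in young IP, 0.00629% (1 gene) in adult IP, 0% in young supernatants and 0% in adult supernatants, with 239 of 15890, 1318 of 15890, 747 of 16286 and 338 of 16286 genes at an unadjusted p below 0.05 and 2, 151, 1 and 0 genes called by DESeq2. Only in adult IP did the share at an unadjusted p below 0.05 exceed the 0.05 that p-values without any effect would give. Why the shares in the other comparisons were smaller was not tested. In young IP all 8 genes had a positive log2 fold change, with a median of 0.25, where 46.9% of all genes were positive and the median was -0.02. Without the last 10 sample numbers 6 of the 8 were positive, with Idi1 at -0.14 and Lss at -0.047. Cyp51 measured 23.9 to 63.3 CPM (median 46.9) in young DHT IP and 19.0 to 37.0 CPM (median 29.3) in young vehicle IP, with 5 of the 6 DHT libraries above the highest vehicle library. Its log2 fold change was 0.75 ± 0.27 (edgeR adjusted p = 1, 95% interval 0.23 to 1.27), and 0.30 without the last 10 sample numbers, which hold the 3 highest DHT values. Sc5d measured 11.9 to 45.0 CPM (median 22.7) in DHT and 7.96 to 30.6 CPM (median 14.2) in vehicle IP (0.75 ± 0.36, edgeR adjusted p = 1, 95% interval 0.04 to 1.46). Fdps had 0.33 ± 0.13 (edgeR adjusted p = 1, 95% interval 0.07 to 0.58), and the groups of all 8 genes overlapped. With all libraries Lss had 0.34 ± 0.40 and Idi1 0.14 ± 0.23.

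In adult IP 7 of the 8 genes had a positive log2 fold change for DHT, with a median of 0.21 against 0.00 over all genes. Hmgcs1 measured 202 to 399.9 CPM (median 256) in adult DHT IP and 107, 175, 202, 211 and 357 CPM in adult vehicle IP (0.40 ± 0.23, 95% interval -0.06 to 0.85, edgeR adjusted p = 0.712). Idi1 measured 60.9 to 140.5 CPM (median 99.9) in adult DHT IP and 53.4, 68.5, 70.6, 78.9 and 99.5 CPM in adult vehicle IP (0.41 ± 0.24, 95% interval -0.05 to 0.88, edgeR adjusted p = 0.701). Both intervals include 0, and the groups overlapped. The GnRH neuron list spanned 829.8 to 13796 CPM in adult DHT and 2209 to 16823 CPM in adult vehicle IP, and its part in these values was not tested.

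In supernatants the DHT differences were smaller and went both ways, 4 genes of 8 positive at each age, with medians of -0.01 in young and -0.02 in adult mice. The exception in size was Sc5d in young supernatants, which measured 15.4 to 37.5 CPM (median 24.1) in DHT and 15.3 to 28.5 CPM (median 15.9) in vehicle mice (0.37 ± 0.18, edgeR adjusted p = 0.976). The value split by sample number. The first 3 DHT libraries lay at 27.95 to 37.5 CPM and the first 4 vehicle libraries at 15.7 to 22.9 CPM, while among the last 10 sample numbers the 3 DHT libraries lay at 15.4 to 20.2 CPM and the 2 vehicle libraries at 15.3 and 28.5 CPM. Without the last 10 sample numbers the log2 fold change was 0.84 (edgeR adjusted p = 0.019), and within them it was -0.32 (edgeR adjusted p = 0.999). In adult supernatants the largest value was that of Lss, with 18.9 to 28.8 CPM (median 23.1) in DHT and 15.7, 18.9, 19.8, 23.2 and 24.3 CPM in vehicle mice (0.22 ± 0.15, 95% interval -0.08 to 0.52). The difference of the DHT effect between the ages was called for none of the 8 genes, beside 0% of all genes in the IP and 0% in the supernatant, with 857 of 15890 and 888 of 16286 genes at an unadjusted p below 0.05. Cyp51 in the IP (-0.76 ± 0.38, edgeR adjusted p = 0.925) and Sc5d in the supernatant (-0.44 ± 0.27, edgeR adjusted p = 0.875) had the largest values, which were -0.32 and -0.91 without the last 10 sample numbers and did not pass. No gene of the other lists of sterol and fatty acid metabolism was called for DHT.

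Apart from the groups, the genes varied together from library to library in the supernatant but hardly in the IP. Correlations were taken of log2 CPM minus the group mean over the 23 libraries of a fraction, and 56 pairs were computed. In the supernatant all 28 pairs were positive with a median Pearson r of 0.55, and 9 passed the permutation test after adjustment over the 56 pairs for both r and rho. In the IP 14 of 28 were positive with a median of -0.01, and 1 passed. The 9 pairs of the supernatant that passed formed 2 sets with no gene in common. The difference between the fractions was not tested. Pairs with genes outside the 56 were not put to the permutation test, and their r is described further on.

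**Figure D4:**
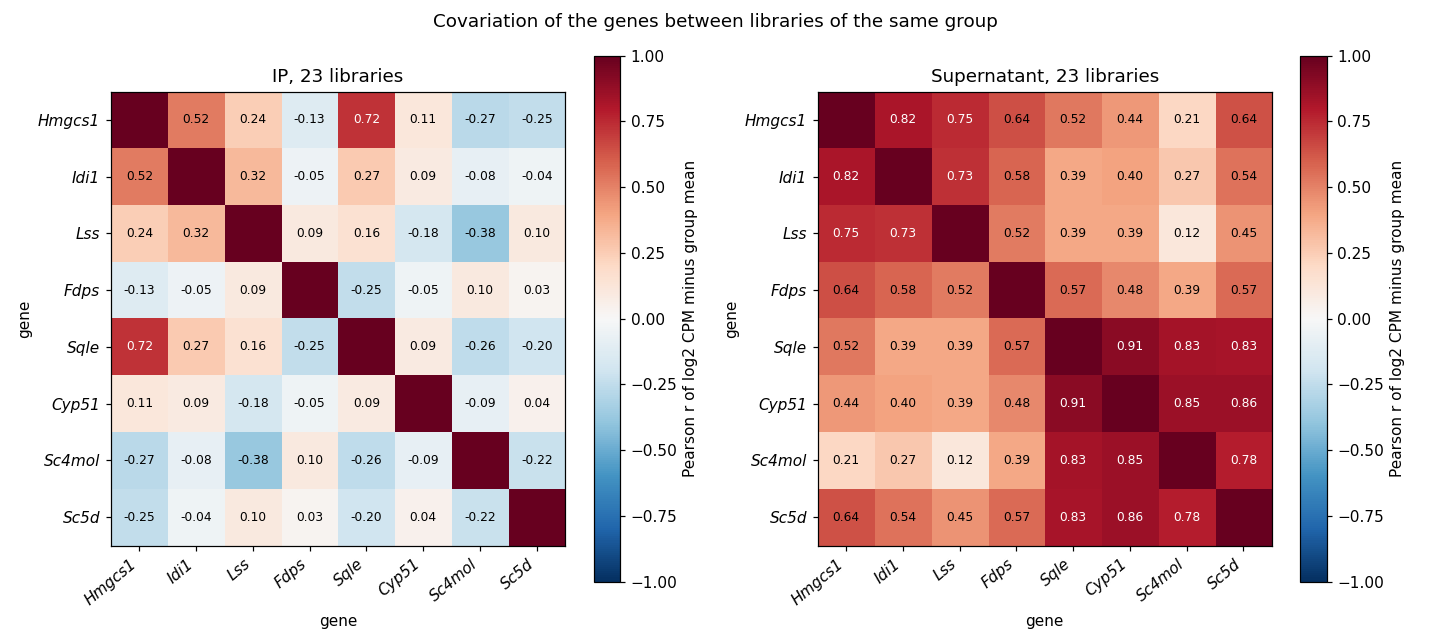
Pearson r between the genes over 23 IP libraries (left) and 23 supernatant libraries (right), on log2 CPM minus the group mean. The supernatant panel shows a set of Hmgcs1, Idi1 and Lss and a set of Sqle, Cyp51, Sc4mol and Sc5d, whose r run from 0.78 to 0.91.

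Sqle, Cyp51, Sc4mol and Sc5d made up the larger set, with r of 0.78 to 0.91 in its 6 pairs. Sqle and Cyp51 had Pearson r = 0.91 (permutation p = 1e-05, the smallest that 100000 permutations can give, adjusted p = 0.000224) and Spearman rho = 0.84 (permutation p = 1e-05). Sc4mol and Sc5d had r = 0.78 (permutation p = 2e-05, adjusted p = 0.000224) and rho = 0.79 (permutation p = 8e-05). The smaller set held Hmgcs1, Idi1 and Lss, with r of 0.73 to 0.82. The sets did not follow the order of the pathway, in which Lss acts between Sqle and Cyp51. Hmgcs1 and Idi1 had r = 0.82 (permutation p = 2e-05, adjusted p = 0.000224) and rho = 0.74 (permutation p = 0.00011). The 12 pairs with a gene of each set were also positive, with r of 0.12 for Lss and Sc4mol to 0.64 for Hmgcs1 and Sc5d, and did not pass after adjustment. Without the 2 libraries farthest from the median of the first gene, the 9 pairs had r of 0.55 to 0.84, and without the last 10 sample numbers 0.62 to 0.85. Over all 28 pairs the median fell to 0.22 without the last 10 sample numbers. The pair that passed in the IP was Hmgcs1 and Sqle (r = 0.72, permutation p = 0.00454, adjusted p = 0.0254; rho = 0.58, permutation p = 0.00896, adjusted p = 0.0456), which had r = 0.45 without the 2 farthest libraries.

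Genes outside the 8 followed them as closely. Each gene was ranked against the tested genes with a mean of at least 5 CPM, by r over the 23 libraries. The median r of a member with all tested genes of the supernatant was 0.01 to 0.05. An r above 0.7 was reached by 0.25% of 16285 tested genes for Fdps and up to 7.44% for Hmgcs1. In the smaller set, partners ranked from 4 (Hmgcs1 for Idi1) to 831 (Lss for Hmgcs1) among 11263 genes. In the larger set, partners ranked from 7 (Cyp51 for Sqle) to 246 (Sc5d for Sc4mol). Genes outside the 8 thus ranked above partners in both sets. Idi1 had Mvd, the decarboxylase that makes its substrate, at rank 2 (r = 0.84) and Hmgcs1 at rank 4 (r = 0.82). Fdps had Fdft1, which uses its product, first (r = 0.88). Cyp51 and Sqle had Dner, a Notch ligand gene of neurons, first (r = 0.93 and 0.91), and Dhcr7, an enzyme of the last steps, stood at rank 5 for Cyp51 (r = 0.91). Sc4mol was most like Atp1b1 (r = 0.93), Hmgcs1 most like Ranbp6 (r = 0.94) and Lss most like Fam98a (r = 0.79). In the IP the most similar genes were Nsf for Hmgcs1 (r = 0.90), Osbpl9 for Idi1 (r = 0.87), Ezh1 for Cyp51 (r = 0.85), Gnl3l for Sqle (r = 0.82), Hunk for Lss (r = 0.81), Pttg1 for Fdps (r = 0.80), Krt77 for Sc4mol (r = 0.73) and Lyplal1 for Sc5d (r = 0.65), and no gene of the 8 stood among the first 5 of another. These ranks describe 23 libraries that share their depth and tissue makeup and carry no test.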

How the data were processed

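The authors deposited a table of estimated counts with 23284 genes and 48 libraries. Whole numbers made up 98.49% of it, and the rest were rounded for the tests. The submitters' processing notes name build mm10, the aligners Bowtie2 2.2.1 and TopHat2 2.0.13, and HTSeq 0.6.1, Cufflinks, Cuffdiff 2.1.1, FastQC 0.11.3 and DESeq2 1.14.1. The counting tool and its annotation are not given in the sources used here. Per the labels' protocols, RNA was prepared with the RNeasy Plus Micro kit and poly(A) libraries with the SMARTer v4 Ultra Low kit.

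Library totals had a median of 39654299. Fraction, age and prenatal treatment in the labels set the groups. In R 4.3.3, edgeR 4.0.16 (with limma 3.58.1) was fitted with TMM factors and robust quasi-likelihood tests to genes passing filterByExpr (minimum count 10, minimum total 15). Comparisons between fractions used all 46 libraries of Cre mice (16660 genes), and the others the 23 libraries of a fraction (15890 genes in the IP, 16286 in the supernatant). P-values were adjusted by Benjamini-Hochberg over all tested genes and called at 0.05. Fold changes and adjusted p-values in the text are from edgeR, and CPM is scaled by the library total with no further factor. Correlations used log2 CPM with a prior count of 2 minus the group mean and 100000 permutations within groups, two-sided. Alternatives were RLE factors, no filter, DESeq2 1.42.0, the compared groups alone, a term for or removal of the last 10 sample numbers, these alone, a replicate block, and each library left out. The code was tested on simulated counts.

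The 8 genes, the other lists and the cell type markers were chosen with earlier results of these data known. The 8 genes are given in every comparison, and of other lists the 2 to 4 called genes with the smallest adjusted p; some genes that this rule names are not reported here. Of the listed genes, Idi2 and Npc1l1 did not pass the filter and Map2 was not matched.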

Additional observations from a re-analysis of the deposited data

Results flagged for a closer look

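Of 64 groups of 1 gene in 1 condition, 3 held a library that stood apart from the others by Dixon's test, which chance does in about 1 in 20 groups. Idi1 stood at 109 CPM in young DHT supernatant replicate 1, where the other 5 libraries lay at 71.0 to 82.1 CPM. Fdps stood at 231 CPM in young DHT IP replicate 5, where the other 5 lay at 138 to 159 CPM. Sc5d stood at 8.53 CPM in adult DHT IP replicate 4, where the other 5 lay at 22.4 to 30.6 CPM.

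The age effect on Fdps differed between the fractions in vehicle mice, by 0.68 on the log2 scale (edgeR adjusted p = 0.0275). It was 0.68 in the IP and 0.03 in the supernatant, each from the fit of its own fraction. All 5 adult IP libraries lay above the 6 young ones. The difference between the fractions was no longer called without supernatant adult vehicle replicate 3 or 4 (edgeR adjusted p = 0.0565 and 0.0575). Nor was it called with libraries of equal replicate number treated as pairs (edgeR adjusted p = 0.0622).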

How the results depend on the processing

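Counted here were the values called with all libraries and a chosen part of the other values given for single genes, once per alternative. Under the alternatives other than leaving out 1 library, 173 kept their direction and their side of the threshold. A further 6 fell short of it, 4 passed it and 2 reversed. With 1 library left out, 465 kept both, 44 fell short, 1 passed and 0 reversed. The counts do not hold every change described above. Among values not counted, Fdps between the fractions in young DHT mice ranged from -0.085 to 0.13 with 1 library left out. Fdps for age in vehicle supernatants ranged from -0.006 to 0.069 and Idi1 for DHT in young IP from -0.0096 to 0.26, so these changed sign. The reversals counted were Lss for DHT in young IP, at -0.047 without the last 10 sample numbers, and Sc5d for DHT in young supernatants, at -0.32 in these libraries alone. Idi1 for DHT in young IP, not among the counted values, also turned negative without the last 10 sample numbers. The causes were not tested.

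Among the 8 genes, the number called between the fractions in adult vehicle mice was 1 with no filter, with a term for the last 10 sample numbers and without these libraries, in place of 0. Age in DHT IP gave 1 in place of 0 with the term and without the libraries. Age in vehicle supernatants gave 4 in both cases and 1 from the compared groups alone, in place of 2. Without the libraries, young DHT mice gave 0 between the fractions in place of 1, and 1 was called in place of 0 for age by fraction in DHT mice, for DHT in young supernatants and for age in DHT supernatants.

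Over all genes, DESeq2 called 454 for age by fraction in vehicle mice (173 in edgeR), 356 in DHT mice (147), 1149 for age in vehicle IP (608), 151 for DHT in adult IP (1), 2 for DHT in young IP (0), 50 for DHT by age in the IP (0) and 1 for DHT in young supernatants (0). With the term, edgeR called 672 for age in DHT IP (1131), 1919 for age in DHT supernatants (3248) and 3 for DHT in adult IP (1). Without the last 10 sample numbers it called 1584 between the fractions in young DHT mice (3324), 372 for age in vehicle IP, 277 for age in DHT IP, 1121 for age in DHT supernatants, 2 for DHT in adult IP, 39 for DHT in young supernatants and 4 for DHT by age in supernatants (0). The last 10 sample numbers alone gave 10 for DHT in young supernatants, and the compared groups alone 0 for DHT in adult IP. The median correlation in the supernatant was 0.22 without the last 10 sample numbers and 0.55 with them.

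With a library left out, the 8 genes gave 2 to 4 calls between the fractions in adult DHT, 0 to 1 in young DHT and 1 to 3 in young vehicle mice, 0 to 1 for age by fraction in vehicle mice, 0 to 1 for age in DHT IP and in DHT supernatants, and 0 to 2 for age in vehicle supernatants. All genes gave 88 to 269 and 87 to 250 for age by fraction in DHT and vehicle mice, 650 to 1355 and 313 to 553 for age in DHT and vehicle IP, 0 to 7 for DHT in adult IP, and 0 to 1 for DHT in adult supernatants and for DHT by age in either fraction.

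The labels do not say whether IP and supernatant libraries of equal replicate number are pairs. An IP library was most like the supernatant of its own number in 4 of 6 cases in young DHT, young vehicle and adult DHT mice. In adult vehicle mice this was so in 5 of 5 cases. Most IP libraries were thus nearest to their own number, though not every correlation was above 0.1. In both fractions the conditions and replicates follow the same order of sample numbers. The main fits did not use the numbers as pairs and so treated the fractions as independent libraries. With the replicate block, age by fraction in vehicle mice gave 0 calls among the 8 genes and 105 over all genes, and Fdps stood at 0.69 (edgeR adjusted p = 0.0622). The block also ended the Idi1 call between the fractions in adult DHT mice (0.45, edgeR adjusted p = 0.0575). In young vehicle mice Hmgcs1 passed with it as lower in the IP (-0.47, edgeR adjusted p = 0.0323). Lss and Sc5d, the lowest per kilobase, had the widest 95% intervals for DHT and for age in the IP.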

Other observations

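Genes of sterol efflux and turnover and of SREBP-driven fatty acid synthesis, lists of 14 and 10 genes, were counted in the same comparisons. Between the fractions, over the mean of the 4 conditions, 1 efflux gene was higher in the IP and 3 were lower, 4 of 14 beside 46.1% of all genes called. Abcg1, a sterol transporter, and Apoe, the main apolipoprotein of the brain, were lower (-0.94 and -0.53 on the log2 scale, edgeR adjusted p = 4.74e-09 and 0.000881), as was Cyp46a1, which hydroxylates cholesterol for export (-0.24, edgeR adjusted p = 0.0174). Of the fatty acid genes, 1 was higher, Me1, which makes NADPH (0.66, edgeR adjusted p = 4.29e-10), and 4 were lower, 5 of 10 beside the same share, among them the desaturases Scd2 and Fads2 (-0.59 and -0.60; edgeR adjusted p = 1.86e-05 and 0.000146).

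With age, the fatty acid genes called were higher in adults, with the exception of Elovl6 in DHT supernatants. In vehicle supernatants 4 of 10 were called, beside 20.3% of all genes, Scd1 at 1.06 (edgeR adjusted p = 0.00219) and Scd2, Fads1 and Fads2 at 0.56, 0.33 and 0.42. In DHT supernatants, where 19.9% of all genes were called, Scd1 and Scd2 were higher (0.82 and 0.55; edgeR adjusted p = 0.0111 and 0.0102) and Elovl6, an elongase, was lower (-0.31, edgeR adjusted p = 0.00584). In the IP, where 3.83% of all genes were called in vehicle and 7.12% in DHT mice, Fasn, the fatty acid synthase, was higher in adult vehicle (1.07, edgeR adjusted p = 0.0374) and adult DHT mice (1.63, 0.000797), and Acly and Scd2 in adult DHT mice (1.17 and 1.00). Beside these shares, efflux genes were called higher in adult vehicle supernatants in 4 of 14 cases, Clu at 0.59 (edgeR adjusted p = 0.00529) and Cyp46a1 at 0.45 (edgeR adjusted p = 0.00759) leading, in 0 of 14 in DHT supernatants, and in 1 of 14, Clu, in vehicle IP (0.82, edgeR adjusted p = 0.0403).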
